A study of Mus musculus with 24 samples.

Results

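The comparison set midbrain cultures kept for 13 d against cortex cultures labelled 48 h, both in 21% O2, on whole-transcript mouse gene arrays. Its members were the 3 arrays of each group, 6 of the 24 arrays in the series, and all 23410 probe sets with at least 1 gene symbol were read on them. The cells were primary neural stem cells from the cortex or midbrain of C57Bl/6 mouse fetuses at embryonic day 14, grown in expansion medium. The series crossed region, culture time (48 h or 13 d) and oxygen (3% or 21%), with 3 arrays in each of 8 groups. Cultures at 3% O2 were kept in a gas mixture with nitrogen and carbon dioxide. RNA came from a well of a culture plate for each sample. No label states that the replicates of a group are different cultures or animals, and p-values therefore cover array-to-array spread alone, which may be technical. The question was which genes of regional identity still separate midbrain from cortex cells when neuron transcript is low in both cultures.

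Regions of the fetal brain are set up by transcription factors. In the midbrain and at the isthmus, its border with the hindbrain, engrailed (En1, En2), paired box (Pax2, Pax5, Pax8, and dorsally Pax3 and Pax7) and Otx2 factors act, and signals such as Wnt1 and Fgf8 maintain these domains. In the telencephalon, which forms the cortex, Emx2, Lhx2 and Six3 act in progenitors, Dlx and Gsx factors in the ventral part, and Tbr1 in young cortical neurons.

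The log2 values of the 6 arrays spanned 4.65 to 14.47. The midbrain arrays correlated with each other at 0.998 to 0.999 over all probe sets, as did cortex replicates 2 and 3 at 0.998. Cortex replicate 1 stood apart, at 0.986 with replicate 2 and 0.992 with replicate 3. All 6 midbrain 13 d arrays of the series belong to array run 1 and the other 18 arrays to run 2, so run and group cannot be told apart in this comparison. Another array bears on the tests. The array labelled cortex 48 h, 3% O2, replicate 1 went against its label for regional genes. Its Emx2 value was 6.86, against 9.07 and 8.87 in its own group and 6.64, 6.51 and 6.29 in midbrain 13 d at 3% O2. Its En2 value was 9.13, against 7.26 and 7.36 in its own group. Errors given with differences are standard errors (SE, 3 arrays a group) from 1 limma fit to all 24 arrays, so this array widens them for regional genes. A gene is called higher or lower where its Benjamini-Hochberg adjusted p in limma was under 0.05 over all 23410 probe sets.

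Both groups, as labelled, held less neuron transcript than the other groups at 21% O2. The 23 neuron genes averaged 8.08 ± 0.05 on the log2 scale (SD, n = 3) in midbrain 13 d and 8.76 ± 0.10 in cortex 48 h. It was 11.28 ± 0.03 in midbrain 48 h and 10.68 ± 0.03 in cortex 13 d. The neuron mean was thus the lower one at 13 d in midbrain and the lower one at 48 h in cortex. Whether the time labels of the cortex cultures are right was not tested. As labelled, each pair of groups joins unlike culture times, and region and culture time cannot be told apart in it. If the cortex labels were exchanged, each pair would join like times. The mean of 18 astrocyte genes was 10.46 ± 0.07 and 10.10 ± 0.59 in the first pair and 8.67 ± 0.16 and 9.04 ± 0.03 in the second. The mean of 21 stem cell and radial glia genes was 11.05 ± 0.02 and 11.05 ± 0.07. Midbrain 48 h minus cortex 13 d, called the second pair below, therefore served as a region comparison in cultures with more neuron transcript. It shares no array with the first pair, and both of its groups lie in array run 2.

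Promoter windows of 3 genes are shown because the results turn on them: Mab21l2 and En1 were higher in midbrain in both pairs, and Emx2 was lower in midbrain 13 d. Each window has 300 bases around a RefSeq transcript start on GRCm38.p6, written 5′ to 3′ on the strand of the gene. They are chr3:86548234-86548533 (minus strand) for Mab21l2, chr1:120602237-120602536 (plus strand) for En1 and chr19:59458440-59458739 (plus strand) for Emx2. Capitals mark a match on either strand to TAATTA (a homeodomain core), TAATCC (an Otx site) or ACAATG (a Sox site).
Mab21l2: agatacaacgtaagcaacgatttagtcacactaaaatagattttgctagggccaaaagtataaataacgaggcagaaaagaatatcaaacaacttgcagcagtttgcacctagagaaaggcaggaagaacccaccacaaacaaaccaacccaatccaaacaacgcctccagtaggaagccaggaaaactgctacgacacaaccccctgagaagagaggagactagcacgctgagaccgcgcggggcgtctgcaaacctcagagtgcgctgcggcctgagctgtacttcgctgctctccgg
En1: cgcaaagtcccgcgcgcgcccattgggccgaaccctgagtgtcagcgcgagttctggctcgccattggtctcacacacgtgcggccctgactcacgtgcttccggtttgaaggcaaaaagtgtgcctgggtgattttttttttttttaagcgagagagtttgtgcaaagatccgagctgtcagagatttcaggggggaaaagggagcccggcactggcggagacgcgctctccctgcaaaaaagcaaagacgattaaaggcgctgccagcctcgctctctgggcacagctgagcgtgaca
Emx2: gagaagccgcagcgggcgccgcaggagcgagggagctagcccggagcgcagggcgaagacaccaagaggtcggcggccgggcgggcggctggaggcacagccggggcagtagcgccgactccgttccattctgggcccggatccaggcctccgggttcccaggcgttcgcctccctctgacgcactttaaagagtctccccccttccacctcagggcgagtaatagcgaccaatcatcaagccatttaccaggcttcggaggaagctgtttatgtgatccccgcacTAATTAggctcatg
The Emx2 window held 1 TAATTA, and the Mab21l2 and En1 windows held none of the 3 motifs. Windows of Irx2, Pax7, Lhx2, Six3 and Zic1, not shown, were also searched and held none of the 3. Of 32851 RefSeq promoter windows of the same length, 5.29% held TAATTA, 7.06% TAATCC and 12.6% ACAATG. The windows held 14, 23 and 26 CpG dinucleotides for Mab21l2, En1 and Emx2, against a median of 7 over all windows. A match describes the letters of the window and is not evidence that a factor binds there.

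Over all probe sets, 5901 (25.2%) differed between midbrain 13 d and cortex 48 h. Of these, 2859 (12.2%) were higher in midbrain and 3042 (13.0%) lower, and 150 were higher and 153 lower by more than 1 on the log2 scale. The median difference was 0.01. In the second pair 9689 probe sets (41.4%) differed, 4555 (19.5%) higher and 5134 (21.9%) lower in midbrain, with a median of 0.01. These shares are the background for the counts of list members in each pair. Higher in midbrain in both pairs were 687 probe sets (2.93%), which are 24% of the first pair's higher calls and 15.1% of the second's. Lower in both were 1311 (5.60%), or 43.1% and 25.5% of the lower calls. A further 1307 (5.58%) were called in both pairs in opposite directions.

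**Figure D1:**
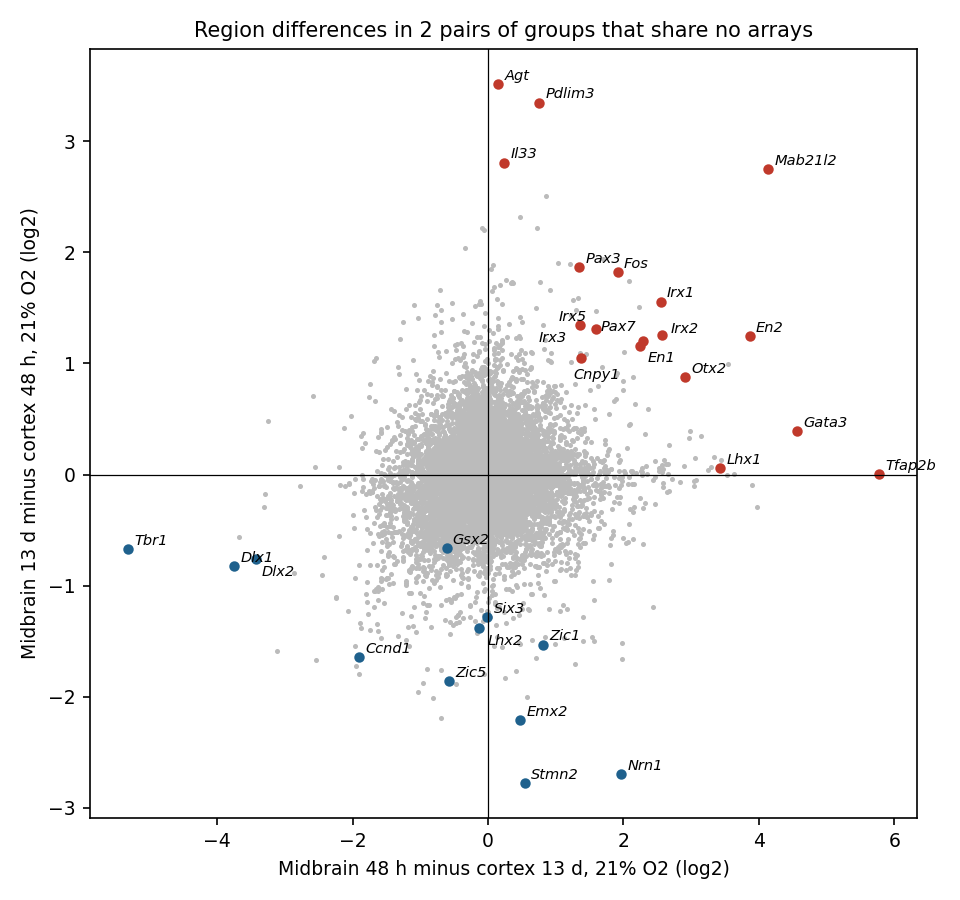
Each grey point is 1 of 23410 probe sets, with named genes in red (no lower than 0 on the y axis) or blue (below 0), placed by its midbrain minus cortex difference (log2) in the second pair on the x axis and in the first pair on the y axis. Mab21l2 lies at 4.14 on the x axis and 2.75 on the y axis, while Tfap2b lies at 5.78 on the x axis and near 0 on the y axis.

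Much of the early midbrain and isthmus patterning list was higher in midbrain 13 d. Of 16 members, 9 were higher and 0 lower in limma, with a list median of 0.38, against 12.2% of all probe sets called higher and a median of 0.01. At an unadjusted p under 0.05, 1 member was lower. All 9 were higher in the second pair too, against 2.93% of all probe sets. That pair had 13 higher members (median 1.01), against 19.5% of all probe sets. The largest difference belonged to Pax3, a dorsal factor of the midbrain and neural tube. Pax3 lay at 8.82, 8.81 and 8.80 in midbrain and at 6.84, 6.97 and 6.99 in cortex. The groups were separate, with a difference of 1.87 ± 0.23 (adjusted p = 1.01e-05, 3.66-fold).

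Pax7, a dorsal factor close to Pax3, lay at 8.60, 8.54 and 8.54 in midbrain and at 7.32, 7.29 and 7.46 in cortex. No cortex array reached the midbrain values, and the difference was 1.20 ± 0.10 (adjusted p = 9.92e-08). For both engrailed genes, cortex replicate 1 was the highest of the cortex arrays, still below midbrain. En2 lay at 8.99, 8.82 and 8.92 in midbrain and at 8.04, 7.42 and 7.54 in cortex, a difference of 1.24 ± 0.31 (adjusted p = 0.00500). En1 lay at 8.90, 8.90 and 8.95 in midbrain and at 8.25, 7.36 and 7.67 in cortex, a difference of 1.16 ± 0.23 (adjusted p = 0.000788). Without cortex replicate 1 the differences were 1.43 for En2 and 1.41 for En1.

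Otx2, which marks forebrain and midbrain down to the isthmus, lay at 10.04, 10.23 and 10.25 in midbrain and at 9.46, 9.20 and 9.21 in cortex. All midbrain arrays were above all cortex arrays, with a difference of 0.88 ± 0.22 (adjusted p = 0.00587). Cnpy1, a modulator of FGF signalling at the isthmus, was higher by 1.05 ± 0.24. Smaller differences were those of Pax8 (0.55 ± 0.13), of Gbx2, a factor of the hindbrain side of the isthmus (0.50 ± 0.16), and of Pax5 (0.24 ± 0.08, adjusted p = 0.0326). Pax5 did not pass when any 1 of the 6 arrays was left out (adjusted p = 0.0507 to 0.112), and Gbx2 did not without midbrain replicate 2, midbrain replicate 3 or cortex replicate 2 (0.0518 to 0.104). The isthmus signals and Pax2 were not called. Fgf8 differed by 0.09 ± 0.08 (95% interval -0.09 to 0.26), Wnt1 by 0.02 ± 0.05 (-0.09 to 0.13) and Pax2 by 0.00 ± 0.08 (-0.17 to 0.17), with overlapping groups for each.

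**Figure D2:**
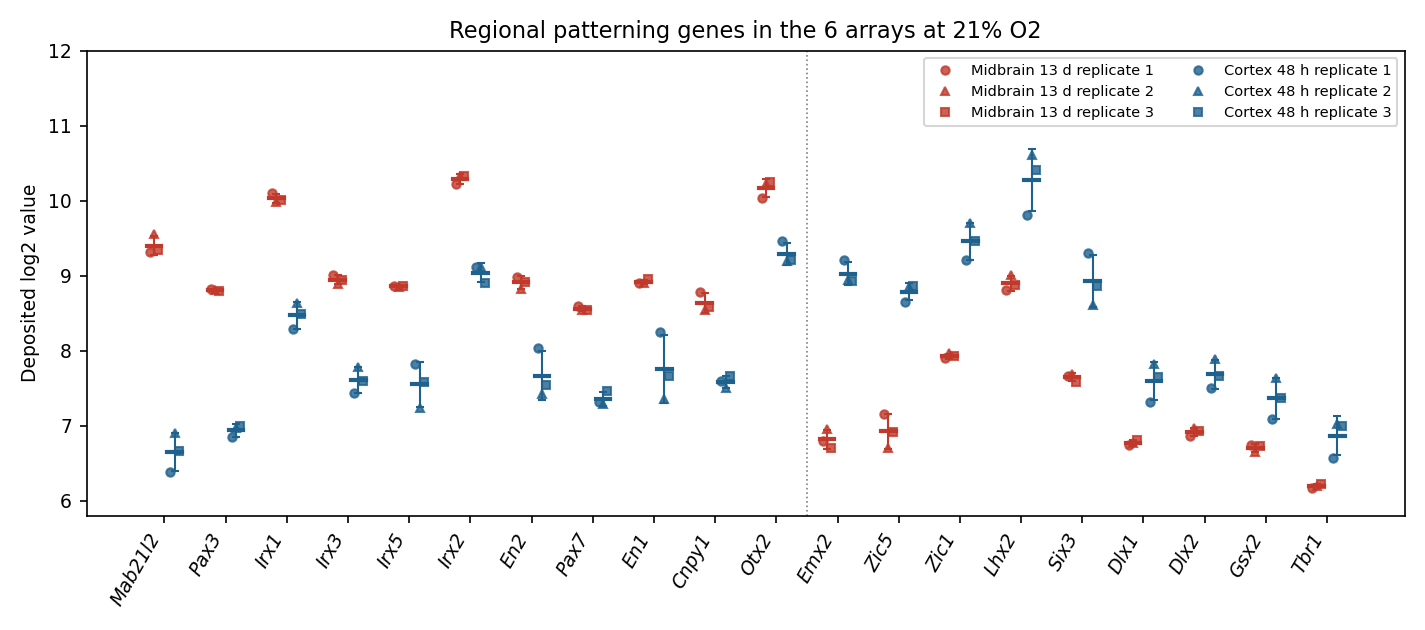
Deposited log2 values (y axis) of regional genes (x axis) in the 6 arrays at 21% O2, with the group means and error bars of 1 SD (n = 3). Midbrain 13 d lies above cortex 48 h for genes such as Mab21l2 and Pax3 and below it for genes such as Emx2 and Lhx2.

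Iroquois genes were higher in midbrain in both pairs. These homeodomain factors act in the midbrain and caudal forebrain and were listed with diencephalic genes. Of the 16 members of that list, 6 were higher and 1 lower (median 0.12), against 12.2% and 13.0% of all probe sets. The same 6 were higher in the second pair, against 2.93% of all probe sets higher in both. Irx1 lay at 10.10, 9.98 and 10.01 in midbrain and at 8.28, 8.64 and 8.50 in cortex, a difference of 1.56 ± 0.19 (adjusted p = 1.01e-05). Irx2 lay at 10.22, 10.33 and 10.34 in midbrain and at 9.11, 9.11 and 8.90 in cortex, a difference of 1.26 ± 0.21. For both genes the cortex arrays lay together, under the lowest midbrain array. Irx3 differed by 1.34 ± 0.28 and Irx5 by 1.31 ± 0.24, again with separate groups.

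Foxb1, a forkhead factor of the caudal diencephalon and midbrain, lay at 9.14, 9.37 and 9.04 in midbrain and at 7.65, 7.43 and 7.28 in cortex. It was higher by 1.73 ± 0.30 in the first pair and 0.77 ± 0.30 in the second. The sixth higher member was Gbx2, which the isthmus list also holds. Nkx2-1, a factor of the hypothalamus and ventral telencephalon, was lower in both pairs (-0.27 and -0.55). Its first-pair value was -0.15 without cortex replicate 1 (adjusted p = 0.275), and it passed only when cortex replicate 3 was the array left out. It did not pass in a fit of the 6 arrays alone (adjusted p = 0.129) or at 3% O2 (-0.19 ± 0.10, adjusted p = 0.183). The other 9 members did not pass, among them the hypothalamic factors Otp (0.10), Sim1 (0.01) and Rax (0.21).

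Outside the lists, Mab21l2, a gene of the midbrain tectum and the eye, led the probe sets that were higher in both pairs. It lay at 9.31, 9.55 and 9.34 in midbrain and at 6.38, 6.90 and 6.66 in cortex. The groups were far apart, with a difference of 2.75 ± 0.47 (adjusted p = 0.000255, 6.73-fold) and of 4.14 ± 0.47 in the second pair. Cdh8, a cadherin gene, lay at 8.78, 8.78 and 8.80 in midbrain and at 6.65, 7.00 and 6.90 in cortex, a difference of 1.94 ± 0.08 (adjusted p = 3.47e-12), with 1.70 ± 0.08 in the second pair. Fos, an immediate early gene that responds to many stimuli, was higher by 1.82 ± 0.18 and 1.91 ± 0.18. The nicotinic receptor gene Chrna3 differed by 1.51 and 2.23, the lipid exporter gene Abca1 by 1.59 and 1.32, and the phospholipase gene Pla2g7 by 1.75 and 2.09. Pla2g7 lay at 9.31, 11.34 and 11.08 in the cortex arrays, so replicate 1 was the low one. Its difference was 1.11 without replicate 1, and it did not pass in a fit of the 6 arrays alone (adjusted p = 0.0607).

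The errors of these regional genes depended on the array labelled cortex 48 h, 3% O2, replicate 1, which belongs to neither pair. Without it the SE of the first pair's difference was 0.14 for Mab21l2, 0.06 for Pax3, 0.13 for En2 and 0.10 for Emx2, and the differences were the same by construction. The midbrain and isthmus list then had 10 higher and 1 lower members of 16.

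Forebrain patterning genes were called in both directions. Of 20 telencephalic and cortical patterning genes, 4 were lower in midbrain 13 d and 3 higher (median -0.08), against 13.0% and 12.2% of all probe sets. Both shares were near the background, and the single genes are described for their own values. Emx2, a homeodomain factor of the dorsal telencephalon, led the lower ones. It lay at 6.80, 6.95 and 6.71 in midbrain and at 9.21, 8.95 and 8.93 in cortex. Every midbrain array was below every cortex array, as the rule for the largest differences required. The difference was -2.21 ± 0.34 (adjusted p = 7.55e-05, 4.62-fold). Lhx2, a selector of cortical identity, lay at 8.80, 9.01 and 8.87 in midbrain and at 9.81, 10.61 and 10.41 in cortex, a difference of -1.38 ± 0.28 (adjusted p = 0.00124). Six3, a rostral forebrain factor, differed by -1.28 ± 0.21, and Six3os1, a transcript of the opposite strand beside it, by -1.89 ± 0.30. Whether these probe sets tell the strands apart was not tested.

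Emx2, Lhx2 and Six3 did not pass in the second pair. There the differences were 0.48 ± 0.34 for Emx2 (95% interval -0.23 to 1.18), -0.13 ± 0.28 for Lhx2 (-0.73 to 0.46) and -0.01 ± 0.21 for Six3 (-0.46 to 0.44). The test of the difference between the pairs passed for each, with adjusted p of 0.000171, 0.0201 and 0.00249. Emx2 had group means of 9.34 in midbrain 48 h, 8.86 in cortex 13 d and 9.03 in cortex 48 h, so midbrain 13 d was the low group of the 4 at 21% O2. Sfrp2, a secreted Wnt modulator, was lower in midbrain in both pairs (-0.36 and -1.11), and did not pass in the first when any 1 of its 6 arrays was left out (adjusted p = 0.0608 to 0.106). The nuclear receptor gene Nr2f2 was higher in both (0.91 and 0.57), whereas Wnt7b was higher in the first (0.91) and lower in the second (-1.06). Otx1 (-0.01 ± 0.08), Pax6 (-0.15 ± 0.13) and Emx1 (0.18 ± 0.08) did not pass in the first pair.

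**Figure D3:**
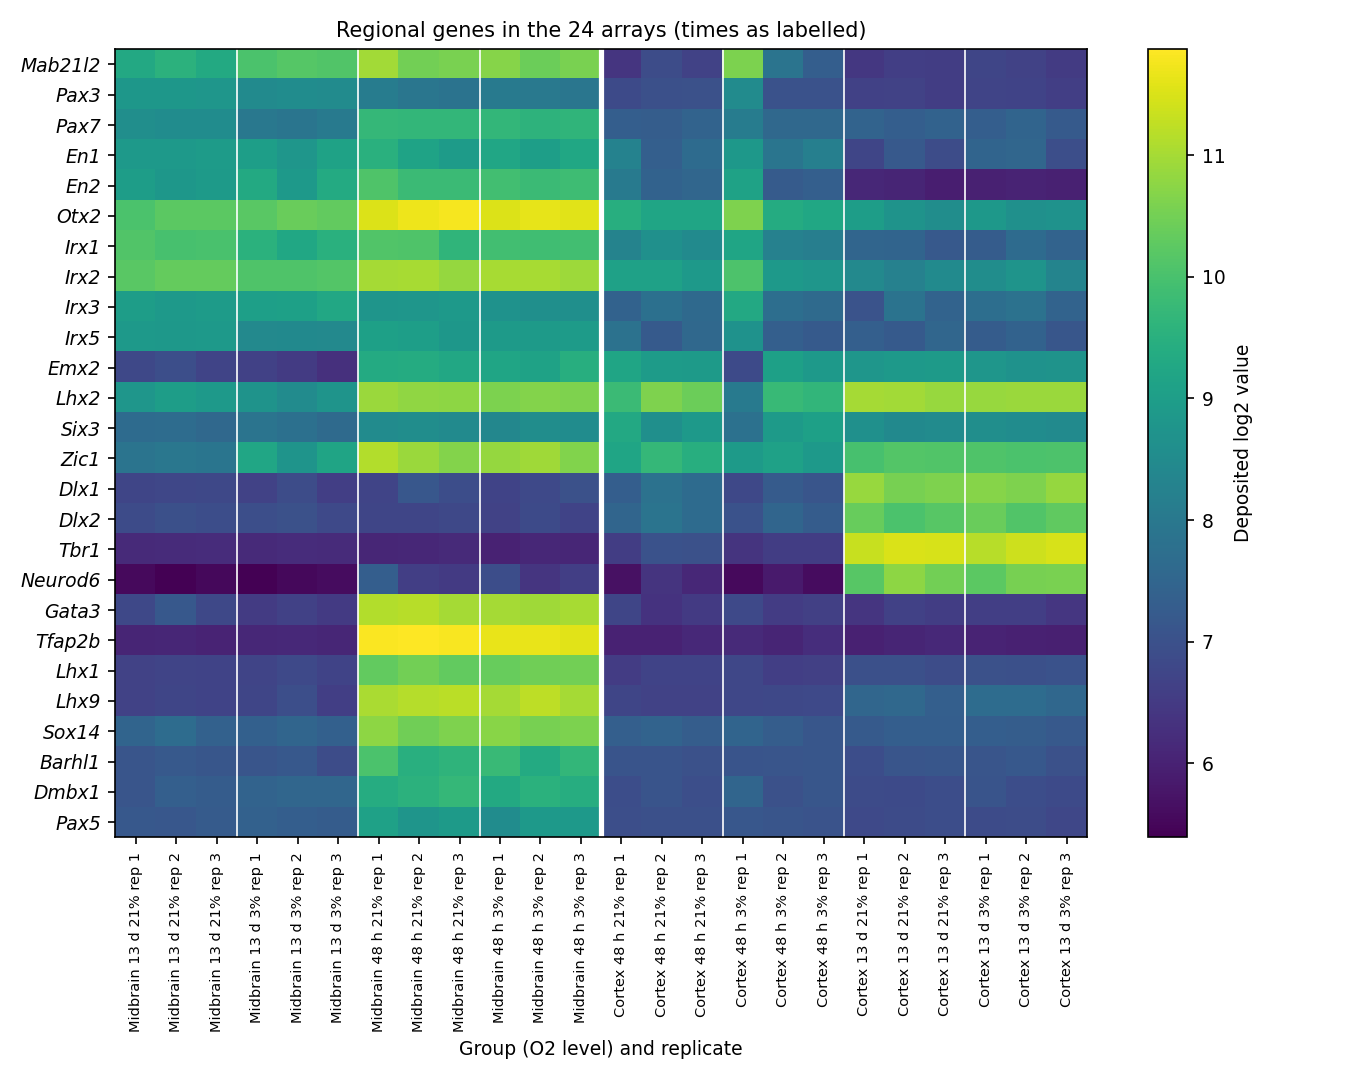
Deposited log2 values (colour) of regional genes in the 24 arrays (columns, by group and replicate, culture times as labelled). Emx2 is low in midbrain 13 d and in the array labelled cortex 48 h, 3% O2, replicate 1 (6.86), and the tectal neuron factors are high in midbrain 48 h.

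Zic genes, which code for zinc finger factors of dorsal progenitors, gave mixed calls. Zic1 lay at 7.90, 7.96 and 7.92 in midbrain and at 9.21, 9.70 and 9.46 in cortex. The groups were separate, with a difference of -1.53 ± 0.13 (adjusted p = 8.89e-08). It was higher in midbrain in the second pair (0.82 ± 0.13), and at 3% O2 the same culture times differed by 0.06 ± 0.13 (adjusted p = 0.783). Zic5 differed by -1.86 ± 0.17 on 1 probe set and by -0.13 on the other, which did not pass. Zic4 differed by -0.16 ± 0.09 and did not pass.

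Ventral forebrain and interneuron genes were lower more often than higher. Of 18 members, 8 were lower and 1 higher (median -0.31), against 13.0% and 12.2% of all probe sets, and 5 were lower in both pairs, against 5.60%. Dlx1, a homeobox factor of interneuron progenitors, lay at 6.74, 6.77 and 6.81 in midbrain and at 7.32, 7.83 and 7.64 in cortex, a difference of -0.82 ± 0.14, with -3.75 ± 0.14 in the second pair. Dlx2 differed by -0.76 ± 0.11 and -3.43 ± 0.11, and the progenitor factor Gsx2 by -0.66 ± 0.11 and -0.61 ± 0.11. Sst, the interneuron peptide somatostatin, lay at 7.39, 7.44 and 7.40 in midbrain and at 8.85, 9.61 and 9.41 in cortex, a difference of -1.88 ± 0.24. For each of these 4 genes every midbrain array was below every cortex array. Groups were separate, in either direction, for 41.4% of all probe sets, and the rule for the largest differences required it of Sst. The enzymes of GABA synthesis were called in opposite directions in the pairs, with Gad2 at -0.66 and 1.05 and Gad1 at -0.44 and 0.68.

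Of 19 genes of cortical projection neurons, 5 were lower and 3 higher (median -0.06), against 13.0% and 12.2% of all probe sets, so the higher share was near the background. Lower in both pairs were 4, against 5.60%. Tbr1, a factor of deep layer neurons, lay at 6.16, 6.20 and 6.22 in midbrain and at 6.56, 7.03 and 7.00 in cortex. Replicate 1 was the lowest cortex array and still above midbrain, with a difference of -0.67 ± 0.10 (adjusted p = 4.49e-05), and the second pair differed by -5.32 ± 0.10. The neuronal factors Neurod1 and Neurod6 differed by -1.11 ± 0.12 and -0.56 ± 0.20. Neurod6 passed without cortex replicate 1 but not when any 1 of the other 5 arrays was left out (adjusted p = 0.0788 to 0.179) or in a fit of the 6 arrays alone (0.0622). The proneural factor Neurog2 was higher in midbrain (0.56 ± 0.06) and did not pass in the second pair (-0.15 ± 0.06).

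Factors of tectal and other midbrain neurons separated the second pair much more than the first. Of 18 members, 2 were higher and 2 lower in the first pair (median 0.02), against 12.2% and 13.0% of all probe sets, and 16 were higher in the second (median 2.02), against 19.5%. The difference between the pairs was called for 16 members, each with the lower value in the first pair, against 16.0% of all probe sets. Tfap2b, a factor of tectal neurons, lay at 6.06, 6.09 and 6.05 in midbrain and at 6.02, 6.01 and 6.15 in cortex, and at a mean of 11.84 in midbrain 48 h. The first pair's arrays overlapped (95% interval -0.10 to 0.11), and the second pair differed by 5.78 ± 0.05. Lhx1 differed by 0.06 and 3.43, and Sox14 by 0.15 and 3.33. Gata3, a factor of midbrain GABA neurons, was higher by 0.39 ± 0.11 and 4.57 ± 0.11. Gata3 did not pass in the first pair without midbrain replicate 2 or cortex replicate 2 (adjusted p = 0.0549 to 0.0792) or in a fit of the 6 arrays alone (0.102).

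Ventral midbrain and dopamine genes had 2 higher and 1 lower of 18 members (median 0.06), near the background. Aldh1a1, an aldehyde dehydrogenase found in some dopamine neurons, lay at 6.70, 6.49 and 6.52 in midbrain and at 5.96, 5.94 and 5.97 in cortex, a difference of 0.61 ± 0.08. The progenitor factor Nkx6-1 was higher (0.41 ± 0.12, with an adjusted p of 0.0749 without midbrain replicate 2) and Nr4a2, a factor of dopamine neurons, lower (-0.57 ± 0.13). The floor plate factors Foxa1 (0.16 ± 0.09) and Foxa2 (0.02 ± 0.09), Lmx1b (0.17 ± 0.10) and the dopamine enzyme gene Th (0.06 ± 0.11) did not pass. Of 16 hindbrain and Hox genes, 3 were higher, against 12.2% of all probe sets. These were Hoxa5 by 0.43 ± 0.07, Hoxa4 by 0.26 ± 0.09 and Hoxd3 by 0.19 ± 0.06. The list means were low, at 6.49 ± 0.05 in midbrain and 6.41 ± 0.04 in cortex (SD, n = 3), under the lowest array median of 7.355. Hoxa4 did not pass without midbrain replicate 2, cortex replicate 1 or cortex replicate 3 (adjusted p = 0.0591 to 0.127). Hoxd3 did not pass when any 1 array other than cortex replicate 2 was left out (0.0522 to 0.149) or in a fit of the 6 arrays alone (0.0559).

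Among patterning signals and their feedback genes, 8 of 23 were lower and 4 higher (median -0.04), against 13.0% and 12.2% of all probe sets, and 7 were lower in both pairs, against 5.60%. Spry4, an inhibitor that FGF signalling induces, lay at 8.98, 9.05 and 9.26 in midbrain and at 11.63, 10.10 and 10.84 in cortex. Cortex replicate 1 was the highest array, and the difference was -1.76 ± 0.22 with it and -1.37 without it. Dusp6, a phosphatase of the same feedback, differed by -1.08 ± 0.29 with overlapping groups, and did not pass without cortex replicate 1 (-0.63, adjusted p = 0.0559). Etv4, an FGF target factor, lay at 8.23, 8.09 and 8.15 in midbrain and at 9.16, 9.42 and 9.35 in cortex, a difference of -1.16 ± 0.09 (adjusted p = 4.18e-08). Its cortex arrays lay close together.

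The BMP ligand gene Bmp7 differed by -1.54 ± 0.15 and -1.16 ± 0.15 in the pairs. Bmp4 lay at 8.23, 8.37 and 8.91 in midbrain and at 7.39, 11.50 and 11.20 in cortex. Cortex replicate 1 lay below all midbrain arrays and replicates 2 and 3 above them. Bmp4 did not pass with all arrays (-1.53 ± 0.68), and its value without replicate 1 was -2.85 (adjusted p = 9.15e-06). In the Hedgehog pathway the receptor gene Ptch1 lay at 11.87, 11.82 and 11.82 in midbrain and at 11.09, 11.12 and 11.13 in cortex, higher by 0.72 ± 0.07, and was lower in the second pair (-0.31 ± 0.07). The effector gene Gli3 was lower in both (-0.57 ± 0.08 and -1.05 ± 0.08).

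Axon guidance genes held further differences, with 8 higher and 2 lower of 19 (median 0.13), against 12.2% and 13.0% of all probe sets. The same call was found in the second pair for 4 of the higher and both of the lower genes. Over all probe sets 2.93% were higher in both pairs and 5.60% lower in both. The ephrin gene Efna5, known from the caudal tectum, lay at 9.41, 9.22 and 9.29 in midbrain and at 7.88, 7.85 and 7.77 in cortex, higher by 1.47 ± 0.40. Robo1, a receptor for Slit cues, was higher by 1.15 ± 0.12, and the ligand gene Slit2 by 0.80 ± 0.12. Efnb2 lay at 8.21, 8.16 and 8.21 in midbrain and at 9.18, 9.33 and 9.11 in cortex, a difference of -1.01 ± 0.07 (adjusted p = 1.37e-08). The repellent gene Sema3a was higher in the first pair (0.91 ± 0.13) and lower in the second (-1.32 ± 0.13).

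**Figure D4:**
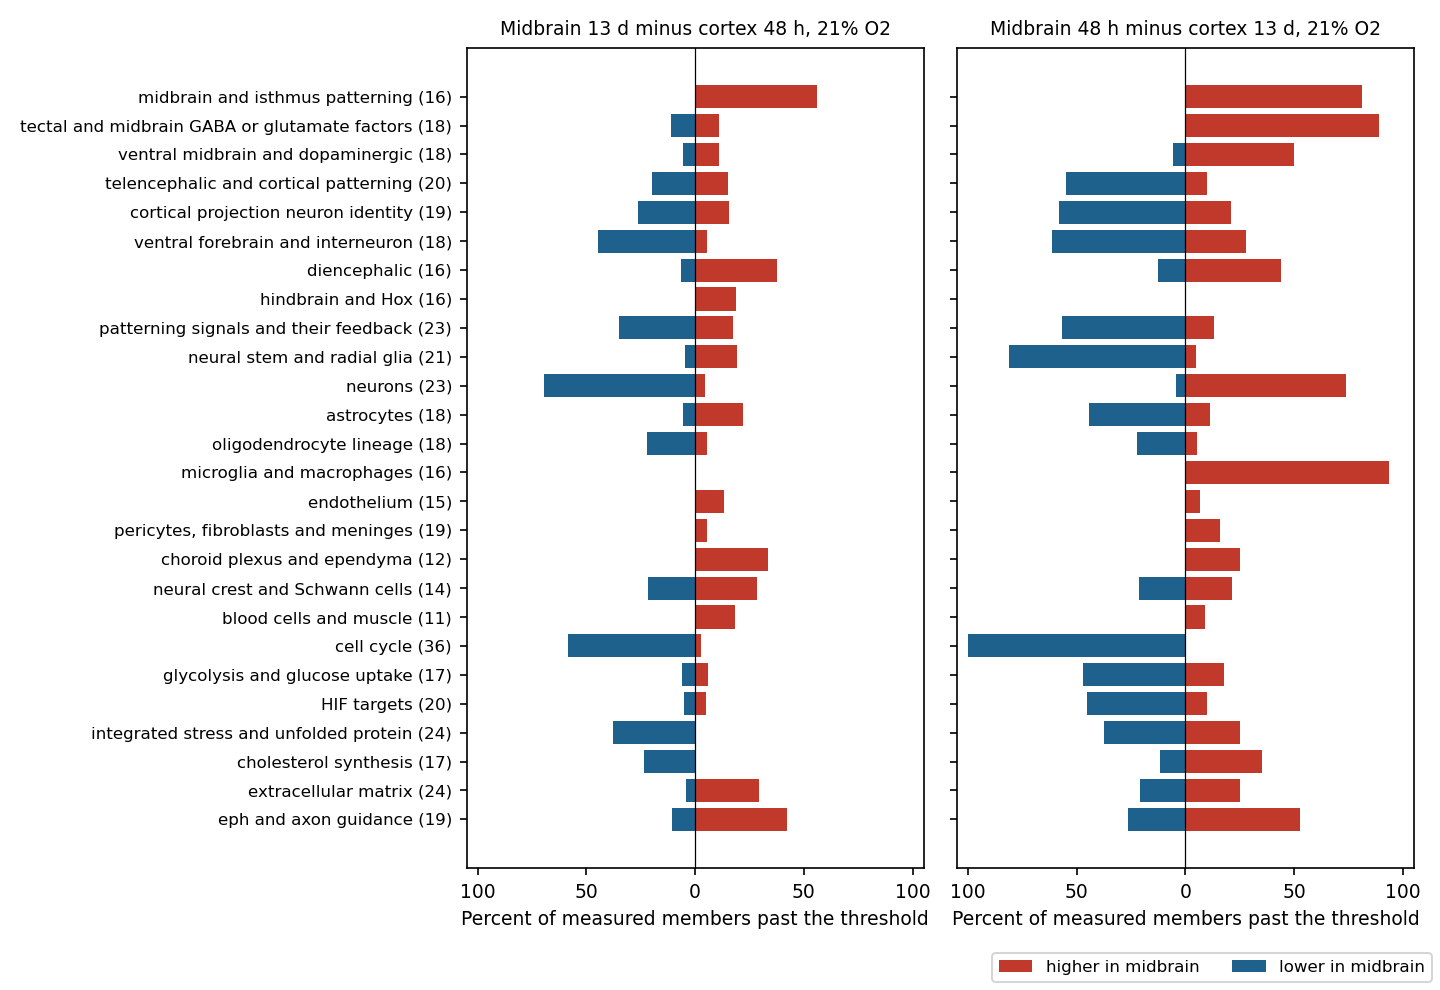
Bars give, for each gene list, the percent of measured members called higher or lower in midbrain (x axis), with the first pair and the second pair in separate panels. The neuron list has 16 of 23 members lower in the first pair and 17 higher in the second, against 13.0% and 19.5% of all probe sets.

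Most neuron genes were lower in midbrain 13 d than in cortex 48 h. Of 23 members, 16 were lower and 1 higher (median -0.54), against 13.0% and 12.2% of all probe sets. In the second pair 17 were higher, against 19.5% of all probe sets. Stmn2, a regulator of microtubules in growing axons, lay at 6.59, 6.42 and 6.38 in midbrain and at 8.76, 9.55 and 9.40 in cortex, a difference of -2.78 ± 0.18 (6.85-fold). The synaptic vesicle gene Syt1 differed by -2.01 ± 0.09 (adjusted p = 5.08e-11) and Nrn1, which codes for the neurite growth protein neuritin, by -2.70 ± 0.24. The groups of these 3 genes did not overlap, which the rule for the largest differences required of them. All 3 were higher in midbrain in the second pair. In bulk RNA, fewer cells of a type and less RNA per cell cannot be told apart. The part of neuron content in the differences of Sst, Tbr1 and the Dlx genes was not tested.

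Of 21 stem cell and radial glia genes, 4 were higher and 1 lower (median -0.02), against 12.2% and 13.0% of all probe sets. The stem cell factor Sox2 lay at 12.35, 12.34 and 12.35 in midbrain and at 12.19, 12.32 and 12.24 in cortex and did not pass (0.10 ± 0.07, 95% interval -0.05 to 0.24). Nes, which codes for the filament nestin, differed by -0.27 ± 0.16 with overlapping groups. Sox1 (0.29 ± 0.06) and the growth factor receptor gene Egfr (0.49 ± 0.10) were higher. Nr2e1, a nuclear receptor of forebrain stem cells, was lower in both pairs (-0.74 ± 0.16 and -2.42 ± 0.16).

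Counts of glial calls changed when cortex replicate 1 was left out. Of 18 astrocyte genes, 4 were higher and 1 lower (median 0.29), against 12.2% and 13.0% of all probe sets, and without this array 1 was higher and 2 lower (median -0.03). The water channel gene Aqp4 lay at 9.75, 9.23 and 9.45 in midbrain and at 6.62, 8.70 and 8.51 in cortex. Replicate 1 was the lowest array, and the difference was 1.54 ± 0.35 with it and 0.88 without it (adjusted p = 0.00279). In a fit of the 6 arrays alone Aqp4 did not pass (adjusted p = 0.100). Aldh1l1, an enzyme of folate metabolism in astrocytes, was higher with it (0.93 ± 0.27) and did not pass without it (0.44, adjusted p = 0.0907) or without midbrain replicate 3. Gfap, the astrocyte filament, lay at 7.78, 7.43 and 8.00 in midbrain and at 6.06, 8.14 and 8.01 in cortex and did not pass (0.33 ± 0.35).

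Of 18 oligodendrocyte lineage genes, 4 were lower and 1 higher (median -0.22), against 13.0% and 12.2% of all probe sets. Without cortex replicate 1, 9 were lower and 1 higher (median -0.51), while 2636 of all 23410 probe sets were lower and 2330 higher. Enpp6, a marker of newly forming oligodendrocytes, lay at 6.76, 6.74 and 7.14 in midbrain and at 6.20, 10.01 and 9.92 in cortex. Replicate 1 lay with the midbrain arrays, so the difference was -1.83 ± 0.64 with it and -3.09 without it. Enpp6 passed without cortex replicate 1 but not when any 1 of the other 5 arrays was left out (adjusted p = 0.0676 to 0.223). The lineage factor Olig2 did not pass (-0.29 ± 0.14). The connexin gene Gjc3 lay at 11.96, 11.83 and 11.91 in midbrain and at 11.46, 10.16 and 10.79 in cortex, higher by 1.10 ± 0.35. It too passed without cortex replicate 1 but not without any 1 of the other 5 arrays (adjusted p = 0.0604 to 0.135).

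**Figure D5:**
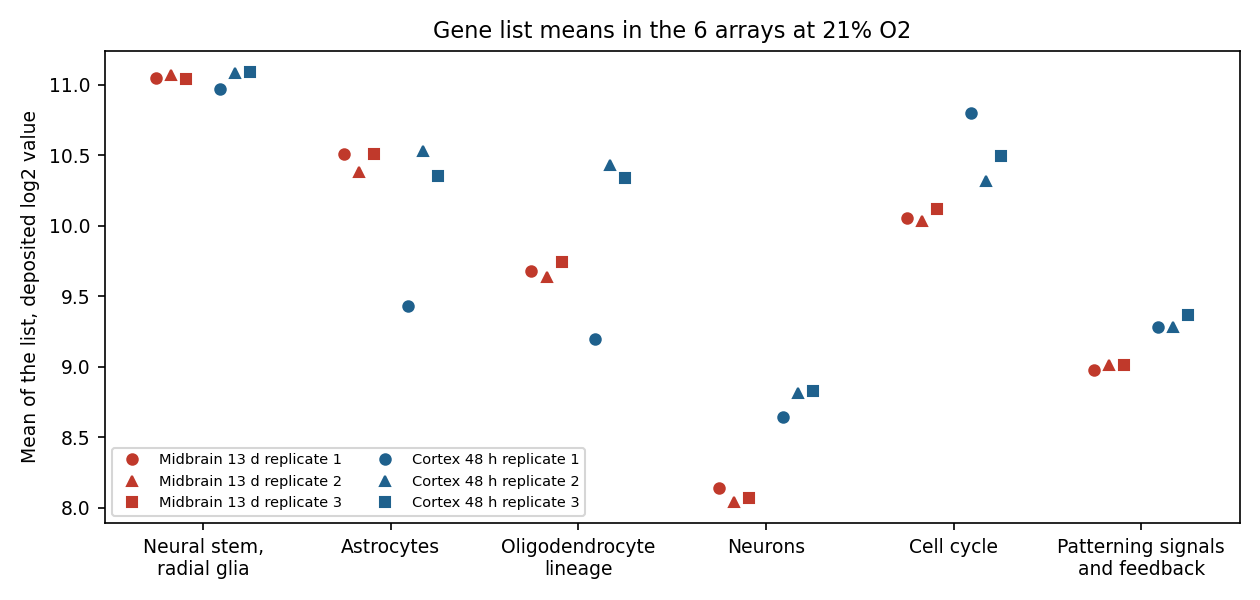
Mean deposited log2 value (y axis) of 6 gene lists (x axis) in each of the 6 arrays at 21% O2, by group and replicate. Cortex replicate 1 has the lowest astrocyte mean (9.43, against 10.53 and 10.35 in replicates 2 and 3), and the neuron means are lower in all midbrain arrays.

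Markers of other cells differed in how often they were called, against 25.2% of all probe sets called in either direction, 12.2% higher and 13.0% lower. Of 16 microglia and macrophage genes 0 passed limma's adjusted threshold in the first pair, and 0 were higher and 0 lower at an unadjusted p under 0.05 (list means 6.44 ± 0.04 and 6.44 ± 0.04, SD, n = 3). In the second pair 15 were higher in midbrain, against 19.5% of all probe sets. Of 15 endothelial genes, Egfl7 (0.28 ± 0.08) and Tie1 (0.18 ± 0.06) were higher. Egfl7 did not pass without midbrain replicate 2 (adjusted p = 0.0724), and Tie1 did not without midbrain replicate 2 or cortex replicate 2 (0.0814 to 0.125). Of 19 pericyte, fibroblast and meninges genes, Tbx18 was higher (0.52 ± 0.14). Of 12 choroid plexus and ependyma genes, 4 were higher, a share above the background. These were the ciliary factor Foxj1 (0.24 ± 0.05), Ccdc153 (0.24), Dynlrb2 (0.20) and Otx2, which the midbrain and isthmus list also holds. Dynlrb2 did not pass when any 1 array other than cortex replicate 1 was left out (adjusted p = 0.0698 to 0.213). The other 8 did not pass, among them Ttr (0.02), Kl (0.01), Clic6 (0.06) and Folr1 (0.28). Of 14 neural crest and Schwann cell genes, 4 were higher, such as the receptor gene Erbb3 (0.66 ± 0.09), and 3 lower, also a larger share than over all probe sets. The part of such cells in the other differences was not tested. Of 11 blood and muscle genes, Tnnt2 (0.26 ± 0.07) and the cardiac actin gene Actc1 were higher. Tnnt2 did not pass without midbrain replicate 2 or cortex replicate 3 (adjusted p = 0.0524 to 0.0616). Actc1 lay at 10.54, 11.04 and 10.71 in midbrain and at 8.96, 8.19 and 8.54 in cortex (2.20 ± 0.19), and did not pass in the second pair (-0.06 ± 0.19). Several list means were low. In midbrain and cortex they were 6.70 and 6.65 for endothelium and 6.81 and 6.63 for choroid plexus and ependyma. For blood and muscle they were 6.83 and 6.58. These means, like those of microglia, were under the lowest array median of 7.355, though Otx2 and Actc1 themselves lay above it.

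The naming rule gave Agt, Pdlim3 and Il33 the largest differences on the higher side. Agt, which codes for the hormone precursor angiotensinogen that astrocytes make, lay at 11.17, 11.07 and 11.31 in midbrain and at 6.88, 8.09 and 8.04 in cortex, a difference of 3.52 ± 0.31 (adjusted p = 1.43e-07, 11.4-fold). Pdlim3, which codes for an actin-associated adaptor of muscle, lay at 10.67, 10.78 and 10.69 in midbrain and at 7.33, 7.42 and 7.34 in cortex, a difference of 3.35 ± 0.24. Il33, which codes for a nuclear cytokine of glia, lay at 9.09, 8.87 and 9.06 in midbrain and at 6.20, 6.19 and 6.20 in cortex, a difference of 2.81 ± 0.21. The rule took only genes with separate groups, so the separation of all 3 was fixed by the choice. Each differed between the pairs, with second-pair values of 0.15 ± 0.31, 0.76 ± 0.24 and 0.24 ± 0.21.

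Further genes on the higher side were Dhrs3, an enzyme of retinal metabolism (2.51 ± 0.18), the monooxygenase gene Fmo1 (2.32 ± 0.21), the potassium channel gene Kcnn2 (2.22 ± 0.18), the Wnt inhibitor gene Apcdd1 (2.22 ± 0.24) and the planar polarity cadherin gene Celsr1 (2.04 ± 0.10). Celsr1 was lower in midbrain in the second pair (-0.35 ± 0.10). On the lower side stood Lratd1 (-2.19 ± 0.19), the scaffold gene Akap12 (-2.01 ± 0.19) and Cd93 (-1.96 ± 0.32), and all 3 were lower in the second pair as well. Cd93 was uneven in cortex, at 10.05, 8.32 and 9.20.

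Genes lower in midbrain in both pairs included the G1 cyclins. Ccnd1 lay at 10.80, 11.03 and 11.01 in midbrain and at 13.04, 12.14 and 12.59 in cortex, a difference of -1.64 ± 0.17 (adjusted p = 1.30e-06), with -1.91 ± 0.17 in the second pair. Ccnd2 lay at 11.33, 11.35 and 11.35 in midbrain and at 12.93, 12.63 and 12.70 in cortex, a difference of -1.41 ± 0.11. The other named genes of this kind were the helicase gene Hells (-1.25 ± 0.20), the opioid peptide gene Penk (-1.45 ± 0.17), Plp2 (-1.54 ± 0.12), the retinoid-binding protein gene Rlbp1 (-1.59 ± 0.35), the protease genes Adamts3 (-1.25 ± 0.17) and Adamts9 (-1.23 ± 0.18), Fndc3c1 (-1.67 ± 0.26) and Fam135b (-1.80 ± 0.49). Fam135b did not pass without cortex replicate 1 (adjusted p = 0.0502).

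Of 36 cell cycle genes, 21 were lower and 1 higher (median -0.39), against 13.0% and 12.2% of all probe sets, and 16 were lower (median -0.28) without cortex replicate 1. In the second pair 36 were lower, against 21.9% of all probe sets. At 3% O2 the same culture times gave 7 higher and 4 lower members (median 0.06), against 10.3% and 13.7% of all probe sets. Without the array labelled cortex 48 h, 3% O2, replicate 1 these were 11 and 4 (median 0.12). The difference between the oxygen levels was not tested. At 21% O2 the cyclin gene Ccne2 differed by -1.27 ± 0.18, the replicative helicase gene Mcm3 by -1.05 ± 0.17 and the ribonucleotide reductase gene Rrm2 by -0.96 ± 0.15. The proliferation marker Mki67 did not pass (-0.12 ± 0.10), nor did the mitotic genes Top2a (-0.05 ± 0.12) and Cenpf (0.12 ± 0.11). Other genes of mitosis were called lower, with Foxm1 at -0.60 and Ube2c at -0.40. Aurkb (-0.38), Bub1 (-0.37) and Cdk1 (-0.33) were lower and Ccnb2 higher (0.36), but did not pass when some single arrays were left out.

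Of 24 genes of the integrated stress and unfolded protein responses, 9 were lower, against 13.0% of all probe sets (median -0.15). The central factor Atf4 lay at 8.20, 8.20 and 8.05 in midbrain and at 8.74, 8.57 and 8.67 in cortex, a difference of -0.51 ± 0.08, and the mitochondrial folate enzyme gene Mthfd2 differed by -1.32 ± 0.21. Of 17 cholesterol synthesis genes, 4 were lower, such as Idi1 (-0.40 ± 0.10, with an adjusted p of 0.0511 when the 6 arrays were fitted by themselves), and 10 without cortex replicate 1. Of 24 matrix genes, 7 were higher and 1 lower (median 0.25), against 12.2% and 13.0% of all probe sets, with the proteoglycan gene Vcan at 0.86 ± 0.12, the protease inhibitor gene Timp3 at 0.83 ± 0.14 and the protease gene Mmp14 at -0.85 ± 0.12. Of 17 glycolysis genes, Pkm was higher (0.24 ± 0.08) and Pfkp lower (-1.47 ± 0.21). Pkm did not pass without cortex replicate 1 (0.20, adjusted p = 0.0958), nor without midbrain replicate 1 or 2. Of 20 targets of the hypoxia-inducible factor, Mxi1 was higher (0.42 ± 0.09) and Adm lower (-0.77 ± 0.16). The difference of Mxi1 was 0.28 without cortex replicate 1, and it did not pass in a fit of the 6 arrays alone (adjusted p = 0.0619).

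Y-linked genes were higher in midbrain. Kdm5d lay at 9.47, 9.55 and 9.48 in midbrain and at 7.71, 8.43 and 8.30 in cortex, a difference of 1.36 ± 0.27, with Uty at 1.15 ± 0.27 and Eif2s3y at 1.10 ± 0.28. Xist, expressed from the inactive X chromosome, lay at 11.05, 9.59 and 10.36 in midbrain and at 11.71, 11.32 and 11.43 in cortex and did not pass (-1.15 ± 0.81). The part of the sex makeup of the cultures in the other differences was not tested.

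The same contrast at 3% O2, in 6 other arrays of the same array runs, called 5608 probe sets (24%), 2408 (10.3%) higher and 3200 (13.7%) lower, with a median of -0.01. Without the array labelled cortex 48 h, 3% O2, replicate 1 it called 5525 (23.6%), 2727 (11.6%) higher and 2798 (12.0%) lower. Of the higher calls at 21% O2, 40.5% were shared with 3% O2, which is 48.1% of the higher calls there, and of the lower calls 49.5%, which is 47.0%. Without that array the shares were 43.3% and 45.4% for higher and 44.6% and 48.5% for lower calls. Of 16 midbrain and isthmus genes, 7 were higher at 3% O2, and 10 without the array (median 0.41).

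At 3% O2 Mab21l2 lay at 10.05, 10.17 and 10.10 in midbrain 13 d and at 10.59, 7.89 and 7.34 in cortex 48 h. Replicate 1 of that cortex group was above all 3 midbrain arrays. The difference was 1.50 ± 0.47 with it and 2.49 ± 0.16 without it. For Emx2 the values were -1.78 ± 0.34 and -2.49 ± 0.11, for En2 1.28 ± 0.31 and 1.88 ± 0.15, for Pax3 1.01 ± 0.23 and 1.51 ± 0.06 and for Irx2 0.86 ± 0.21 and 1.27 ± 0.10. All 5 genes thus differed in the same direction as at 21% O2, with and without the array. Pax7 did not pass with the array (0.21 ± 0.10, adjusted p = 0.154) and was higher without it (0.39 ± 0.07, adjusted p = 0.000361). Otx2 had an adjusted p of 0.0736 with and 4.42e-06 without the array (0.56 ± 0.22 and 1.00 ± 0.11), and Lhx2 of 0.239 and 3.52e-05 (-0.49 ± 0.28 and -1.05 ± 0.14).

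Over these 3 comparisons, 321 probe sets (1.37%) were higher in midbrain each time and 705 (3.01%) lower. The former held 7 of 16 midbrain and isthmus genes, 6 of 16 diencephalic genes and 4 of 19 guidance genes, against 1.37% of all probe sets. The size of the region difference was itself tested between the pairs at 21% O2, and 8031 probe sets (34.3%) passed. Among them the difference was smaller in the first pair for En1 (-1.08, first minus second pair), En2 (-2.62), Pax7 (-1.08), Otx2 (-2.03), Irx1 (-0.99) and Irx2 (-1.31). Pax3 (0.52 ± 0.33, 95% interval -0.17 to 1.21), Irx3 (-0.01 ± 0.40), Irx5 (-0.29 ± 0.34) and Mab21l2 (-1.39 ± 0.67, -2.79 to 0.01) did not pass that test.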

How the data were processed

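Each sample was 1 whole-transcript array, hybridised with biotin-labelled cDNA made from culture RNA according to the labels. The log2 values come from 1 table the authors deposited, which per the labels is normalized, with 28856 probe sets on 24 arrays. Its normalization method: not given in the sources used here. Tests used the 23410 probe sets with a gene symbol, 21789 of them with 1 symbol (19938 genes) and 1621 with several, while 5446 probe sets had none and are unnamed here. RefSeq on GRCm38.p6 held the Entrez number of 21698 probe sets with 1 symbol, and 0 symbols changed.

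Limma 3.58.1 in R 4.3.3 fitted 8 group means to all 24 arrays (16 residual degrees of freedom) with eBayes. P-values were two-sided and adjusted by Benjamini-Hochberg over 23410 probe sets in each comparison, with 0.05 as the threshold. Compared were midbrain 13 d minus cortex 48 h at 21% and at 3% O2, midbrain 48 h minus cortex 13 d at 21% O2, and the difference between the 2 pairs at 21% O2. They share 1 error estimate. The pipeline was tested on simulated data.

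The 27 gene lists (496 genes, 467 measured), the panel and the members were chosen with earlier results of these data known. The rule named 139 genes: the 10 largest differences on each side with separate groups, in each list the 3 genes of smallest p, a panel of 42 genes (40 measured), and the 10 on each side that differed most in both pairs. Other list members named, such as Cnpy1, Spry4, Bmp4, Tfap2b and Xist, were chosen after their values were seen. Alternatives covered the probe sets tested, a filter on dim ones, quantile normalization, centring, the variance model, array weights, the arrays fitted, a replicate block and leaving out each array, with 3 more added after seeing the data. Sequences are RefSeq promoters.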

Additional observations from a re-analysis of the deposited data

Results flagged for a closer look

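The region difference at 21% O2 was tested between the pairs as the value in midbrain 13 d minus cortex 48 h less the value in midbrain 48 h minus cortex 13 d. By limma's adjusted p this difference of differences passed for 8031 probe sets and for 81 of the 139 genes named by rule. Xist and the Y-linked genes were left out of the count of 81. A negative value means a lower midbrain minus cortex difference in the first pair. Midbrain 13 d is the only group of the 4 in array run 1, so run is part of every value below.

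Early midbrain, isthmus and Irx factors had lower values in the first pair, with En1 (-1.08), En2 (-2.62), Pax2 (-0.47), Pax5 (-1.81), Pax7 (-1.08), Otx2 (-2.03), Wnt1 (-0.21), Irx1 (-0.99) and Irx2 (-1.31). So did the factors of midbrain neurons and the ventral midbrain Gata3 (-4.18), Tfap2a (-2.58), Foxa1 (-0.54) and Nr4a2 (-0.61), and the nicotinic receptor gene Chrna3 (-0.71). Aldh1a1 (0.43) and Hoxa5 (0.43) went the other way.

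Forebrain genes were split. Lower values were found for Emx2 (-2.68), Lhx2 (-1.25), Six3 (-1.27), Six3os1 (-1.42), Zic1 (-2.35), Zic5 (-1.28), Sst (-0.93) and Neurod1 (-0.62). Higher values were found for Tbr1 (4.65), Dlx1 (2.93), Dlx2 (2.67), Emx1 (0.47), Nr2f1 (0.52) and Neurog2 (0.70).

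Neuron genes had lower values, with Stmn2 (-3.32), Syt1 (-2.59), Rbfox3 (-1.32), Tubb3 (-0.85) and Nrn1 (-4.66). Stem cell and proliferation genes had higher values, with Sox1 (1.15), Sox2 (1.07), Nes (1.19), Egfr (1.56), Nr2e1 (1.67), Mki67 (1.26) and Rrm2 (0.62). The astrocyte genes Aqp4 (1.67), Aldh1l1 (1.75) and Acsbg1 (1.04) had higher values, and the first-pair values of Aqp4 and Aldh1l1 moved by more than 1.5 times without cortex replicate 1. Olig2 (1.27) had a higher value too, while its list of 18 oligodendrocyte lineage genes had 3 higher, 2 lower and 13 that did not pass (median -0.15), against 18.3% and 16.0% of all probe sets. Microglia genes had lower values, with Cd68 (-2.45), Cx3cr1 (-0.63) and Trem2 (-0.82). Genes that mark other cells were Egfl7 (0.46), Foxj1 (0.20), Erbb3 (0.81), Prrx2 (0.46), Twist1 (0.36), Tnnt2 (0.27) and Actc1 (2.26).

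Signal, guidance and matrix genes were Gli3 (0.47), Ptch1 (1.04), Robo1 (1.01), Sema3a (2.23), Efnb2 (0.62) and Vcan (1.57). Metabolic and stress genes were Pfkl (1.04), Pfkp (-2.60), Pkm (0.49), Atf4 (-0.82), Mthfd2 (-0.89) and Hsd17b7 (-0.92). Leading genes on the higher side were Agt (3.37), Pdlim3 (2.59), Il33 (2.57), Dhrs3 (1.64), Fmo1 (1.85), Kcnn2 (2.31), Apcdd1 (1.49) and Celsr1 (2.39). Leading and shared genes on the lower side were Akap12 (-1.20), Lratd1 (-1.49), Adamts9 (0.84), Plp2 (0.43) and Rlbp1 (1.53).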

How the results depend on the processing

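The first pair's 5901 calls became 11001 with array quality weights, and the calls at 3% O2 went from 5608 to 8916. Calls shared by both pairs at 21% O2 went from 1998 to 3173 with array weights and to 1292 with the arrays of each comparison fitted alone, which leaves fewer arrays for the error. The cause of the rise with array weights was not tested. Leaving out 1 of the compared arrays at a time gave 4491 to 6096 calls in the first pair and 4042 to 5525 at 3% O2. The second pair had 8458 to 9968 (9689 with all arrays). The difference between the pairs had 7166 to 8579 (8031), and 1473 to 2307 calls were shared. In the first pair, median centring gave 2479 higher and 3444 lower calls. With the replicate number as a block the first pair had 6025 calls, the 3% contrast 5642, the second pair 9681, the difference 8079 and the shared set 2086. Numbers did not pair the groups compared, by the rule that each correlation of deviations of same-numbered arrays must exceed 0.1. These were -0.10, -0.02 and 0.11 in the first pair, -0.01, -0.19 and 0.24 in the second and -0.15, -0.27 and -0.13 at 3% O2. Between the oxygen levels, which were not compared here, same-numbered midbrain arrays went together at 13 d (0.12, 0.42 and 0.31) and at 48 h (0.12, 0.22 and 0.24), so the 3% O2 contrast is not taken as independent of the first pair. Among 467 measured list genes, 162 were called (74 higher, 88 lower), and 63 higher and 99 lower without cortex 48 h replicate 1, an alternative chosen after seeing the data. Also chosen after seeing the data, the error estimate without the array labelled cortex 48 h, 3% O2, replicate 1 gave 6254 first-pair calls, and leaving out both number 1 arrays of cortex 48 h gave 5482. Of 111 named genes past the threshold, 92 kept their call under every alternative that tested them. The filter on dim probe sets left some named genes untested. Of 139 named genes, 0 changed direction with a call before or after the change. Sign changes without a call were not counted, such as that of Pax2 (-0.04 to 0.02 with 1 array left out). Signal over background is not visible in normalized values, and 3 arrays a group limit the precision.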

Other observations

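Classes of transcripts picked by symbol after the values were seen gave these counts in the first pair, against 12.2% of all probe sets called higher and 13.0% lower. For the second-pair counts the shares over all probe sets were 19.5% higher and 21.9% lower. Of 60 small nucleolar RNA probe sets, which guide chemical marking of ribosomal RNA, 13 were higher and 19 lower in midbrain 13 d (median -0.13), and 3 and 39 in the second pair (median -0.52). Of 305 microRNA probe sets 24 were higher and 13 lower (median 0.01), and 131 and 2 in the second pair (median 0.14). Of 47 histone probe sets 5 were higher and 11 lower (median -0.08), and 1 and 29 in the second pair (median -0.33). Of 207 ribosomal protein probe sets 21 were higher and 11 lower (median 0.08), and 1 and 176 in the second pair (median -0.56). Members of a class can share sequence with close copies, so single probe sets of these classes are uncertain.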
